A study of Solanum lycopersicum with 120 samples.

Results

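The 54 genes described here were raised by a low ratio of red to far-red light (low R/FR) in nearly every organ and at nearly every time measured in wild-type tomato seedlings. They were chosen from the normalised read counts (CPM, counts scaled to library size) that the authors deposited for WT. For each of 4 organs and 3 times, a response R was taken as log2 of the ratio of the mean of 3 low R/FR samples to the mean of 3 white light samples, after adding 1 CPM to both means. A gene was a member when R was at least 0.7 in at least 10 of these 12 pairs, which held for 54 of the 17161 genes in the table. Of the members, 26 reached 0.7 in all 12 pairs, 14 in 11 and 14 in 10. The levels and responses of WT are therefore a description and carry no test, whereas no sample of the 2 mutants was used to choose the genes.

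RNA was sequenced from 4 organs, the cotyledons, the first leaf and both stem segments (hypocotyl and epicotyl), of tomato (*Solanum lycopersicum*) cultivar M82 and of 2 mutants in that background. The *slpifq* line carries CRISPR alleles of *SlPIF4*, *SlPIF7a*, *SlPIF7b* and *SlPIF8a*, the *slpif8a* line carries an allele of *SlPIF8a* alone, and WT carries none. All seedlings had grown for 12 days in long days of white light at 24 °C and about 200 µmol m-2 s-1. On the day of treatment they had 2 h of light and then either additional far-red light that lowered R/FR to 0.6 (24FR) or white light alone (24WL). WT was sampled after 3, 6 and 24 h and the mutants after 6 h only. Far-red was given in the daytime only, so that the samples of 3, 6 and 24 h were taken 5, 8 and 2 h after lights on. Each group had 3 replicates, each of them the organ pooled from 4 seedlings, and p-values measure the spread between such pools. A pool of whole organs does not tell a change in the number of cells of a type from a change in RNA per cell.

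Phytochromes are red and far-red photoreceptors. In red-rich light active phytochrome B represses the PHYTOCHROME INTERACTING FACTORS (PIFs), basic helix-loop-helix transcription factors. Far-red light, which plants receive from neighbouring leaves, inactivates phytochrome B, and PIFs then activate genes of auxin synthesis, transport and response, gibberellin synthesis and cell wall loosening, which make stems and petioles elongate in the shade avoidance response.

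Between 15905765 and 33913236 reads were counted on genes in each of the 120 libraries, and the floor used here, 3 counts, was worth 0.0711 to 0.221 CPM. The expression profile of each library was nearest to the mean of its own organ in all 72 libraries of both tables. Messenger RNA of the mutated genes was still counted in the mutants (*SlPIF8a* had a median of 120.0 CPM in *slpifq*, 123 CPM in *slpif8a* and 125 CPM in WT), so that it does not check the genotype labels. All 54 members passed the filter of the test (more than 5 CPM in at least 3 of 72 libraries), but only 39 would have passed on the 24WL libraries alone, and the other 15 were tested because of their level in 24FR.

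By their annotation, the members comprised 6 homeodomain transcription factors, 5 transcription factors of other families, 1 photoreceptor, 5 genes of auxin signalling, transport and conjugation, 10 *SMALL AUXIN UP RNA* (*SAUR*) genes, 3 genes of gibberellins and cytokinins, 9 genes of the cell wall, secretion and cytoskeleton and 15 others, many of unknown function. In all, 12 of them lay on chromosome 1 and 11 on chromosome 4, as read from the gene identifiers. Of these, 9 of the *SAUR* genes had neighbouring identifiers, from Solyc01g110630 to Solyc01g110790, and the Aux/IAA genes *IAA17* and *IAA22* also stood next to each other. Reads from such close paralogs may be split or dropped in counting, so that the values of single *SAUR* genes are less certain than those of the other members.

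In WT the members differed in the size of the response more than in its presence. Of the 54 members, R was at least 0.7 in the cotyledons in 53 at 3 h (1.41%), 53 at 6 h (2.48%) and 53 at 24 h (2.34%), where the percentages give the share of all 17161 genes that reached the same R. In the first leaf it was 47 at 3 h (0.944%), 52 at 6 h (1.68%) and 52 at 24 h (1.33%). The hypocotyl had 48 at 3 h (1.08%), 54 at 6 h (3.15%) and 52 at 24 h (3.31%), and the epicotyl 43 at 3 h (0.647%), 53 at 6 h (2.07%) and 46 at 24 h (6.31%). These counts follow from the rule. The strongest member was *SlGA20ox2* (Solyc06g035530), which encodes a gibberellin 20-oxidase of gibberellin synthesis and had a median R of 4.53 over the 12 pairs. The 2 homologs of *ARABIDOPSIS THALIANA HOMEOBOX2*, *ATHB2* (Solyc06g060830) and *SlATHB2* (Solyc08g078300), had medians of 3.31 and 3.16. The lowest median was that of the transmembrane protein gene Solyc01g058320, at 0.88.

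The response was larger at 6 h than at 3 h or 24 h in the middle of the set in every organ. The median R in the cotyledons was 1.37 at 3 h, 1.79 at 6 h and 1.5 at 24 h, and in the hypocotyl 1.39, 2.17 and 1.84. The first leaf, with 1.17, 1.39 and 1.22, and the epicotyl, with 1.19, 1.66 and 1.23, had lower medians than the hypocotyl at each time. Single members peaked at different times. R was highest at 6 h in 29 of 54 members in cotyledons, 25 in first leaves, 28 in hypocotyls and 34 in epicotyls, and at 24 h in 21, 20, 18 and 10.

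The median levels on both sides of the ratio varied with time. In the cotyledons the median member stood at 19.5 CPM at 3 h, 30.1 CPM at 6 h and 17.2 CPM at 24 h in 24FR, and at 4.57, 3.63 and 4.73 CPM in 24WL. In the hypocotyl it stood at 26.4, 41.5 and 25.9 CPM in 24FR and at 8.66, 7.81 and 8.91 CPM in 24WL. These medians of 24WL were lowest at 6 h, but the median change of a single member at 6 h over 3 h in 24WL was -0.10 in cotyledons and 0.03 in hypocotyls on the log2 scale. The epicotyl differed on both sides. Its median member was at 15.7, 17.8 and 21.1 CPM in 24FR, against 6.68, 5.21 and 7.21 CPM in 24WL. There the median change of a single member over 3 h in 24WL was -0.36 at 6 h and 0.25 at 24 h on the log2 scale. In 24FR it was 0.27 and 0.32. The epicotyl level in 24WL was highest at 24 h in 33 members and at 6 h in 7. Since the times also differed in the hour of the day, duration of low R/FR and time of day cannot be told apart.

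The roles differed in timing. The 5 auxin genes peaked at 6 h: their median R in the cotyledons was 1.63, 2.47 and 1.44 over the 3 times, against 1.34, 2.32 and 1.53 in the epicotyl, and R was highest at 6 h in 4 of 5 genes in the cotyledons, first leaf and hypocotyl and in 5 of 5 in the epicotyl. The *SAUR* genes, small auxin-induced proteins that in Arabidopsis promote cell expansion, were later. Their median R was 1.28, 1.42 and 1.92 in cotyledons, 1.18, 1.31 and 1.71 in first leaves and 1.5, 2.54 and 2.68 in hypocotyls at 3, 6 and 24 h. R was highest at 24 h in 8, 9 and 7 of the 10 *SAUR* genes in these organs, whereas in the epicotyl it was highest at 6 h in 9 of 10 (median 1.29, 2.03 and 1.43).

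**Figure D1:**
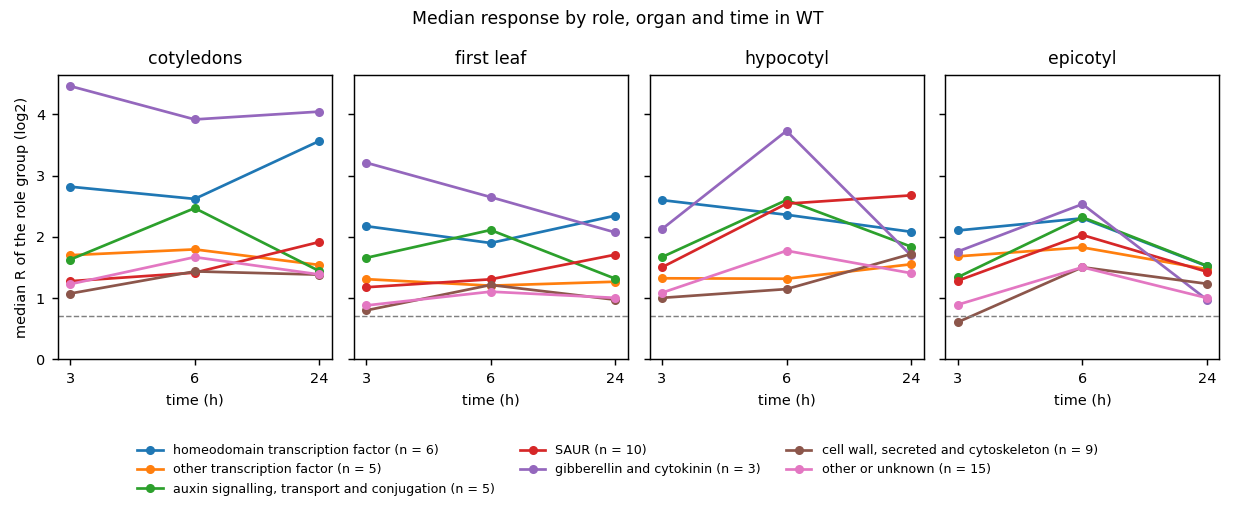
Median response R in WT of the members of each role (one line per role, with the number of genes in the legend) at 3, 6 and 24 h, which are equally spaced on the axis, in one panel per organ. The dashed line marks R of 0.7, and the single photoreceptor gene is not drawn. The line of the *SAUR* genes rose up to 24 h in the cotyledons, first leaf and hypocotyl and peaked at 6 h in the epicotyl.

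*SAUR11* (Solyc01g110770), named after its values were seen, shows this in single samples. In the hypocotyl it had 4.51, 3.51 and 2.39 CPM in 24FR against 0, 0.406 and 0.225 CPM in 24WL at 3 h, and 20.9, 20.9 and 19.3 CPM against 0.192, 0.107 and 0.228 CPM at 24 h (R of 1.89 and 4.18). The white light level stayed below 1 CPM while the 24FR level at 24 h lay above every 3 h value. In the epicotyl *SAUR11* had 24.8, 22.9 and 23.9 CPM in 24FR at 24 h against 3.98, 3.53 and 5.47 CPM in 24WL, a higher white light level than in the hypocotyl, and R was 2.22.

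Across organs, R was highest in the cotyledons or hypocotyl and lowest in the first leaf or epicotyl for most members. Since R adds 1 CPM to both means, it shrinks most where levels are low, which can alter ranks between organs, times and roles. At 6 h in WT cotyledons the *SAUR* genes had a median R of 1.42 but a median fitted log2 fold change of 2.50. R was highest in the cotyledons in 22, 20 and 23 members at 3, 6 and 24 h and in the hypocotyl in 20, 22 and 24, which left 4, 4 and 1 for the first leaf and 8, 8 and 6 for the epicotyl. It was lowest in the epicotyl in 25, 16 and 27 members and in the first leaf in 17, 25 and 21. In all there were 42 misses of 0.7, with 20 in epicotyls, 11 in first leaves, 8 in hypocotyls and 3 in cotyledons. They included the epicotyl at 3 h for 11 members and at 24 h for 8, the first leaf at 3 h for 7 and the hypocotyl at 3 h for 6.

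A few members had a small or reversed response in the epicotyl after 24 h. *SlGA20ox2* had 37.4, 37.2 and 34.8 CPM in 24FR against 0.402, 0.151 and 0.527 CPM in 24WL at 3 h, and 66.8, 60.3 and 62.0 CPM against 1.54, 1.13 and 2.11 CPM at 6 h. At 24 h it had only 4.90, 6.06 and 5.42 CPM in 24FR against 1.78, 1.38 and 1.88 CPM in 24WL, still without overlap, and R was 1.27. The gene of phytochrome B2 (Solyc05g053410), one of the phytochrome B photoreceptors of tomato, had 18.9, 23.7 and 22.2 CPM against 18.3, 17.6 and 17 CPM at 24 h, whereas at 6 h it had 69.5, 69.7 and 56.9 CPM against 16.8, 14.4 and 13.2 CPM. The 24FR values of 24 h thus lay just above white light. *Cytokinin oxidase 4* (Solyc04g080820), which encodes an enzyme that degrades cytokinins, turned round, with 0.327, 0.391 and 0.479 CPM in 24FR against 0.892, 0.675 and 0.840 CPM in 24WL at 24 h. A *GH3* gene (Solyc12g005310, named after its values were seen), whose family joins auxin to amino acids, did the same, with 12.3, 12.6 and 13.1 CPM against 25.1, 22.8 and 34.4 CPM. In both of these genes all 24FR replicates lay below all 24WL replicates in the epicotyl at 24 h, and R was -0.37 and -1.06. The *GH3* gene was also below 0 in the hypocotyl at 24 h (-0.44), while in the cotyledons it had 37.3, 50.5 and 57.0 CPM against 14.2, 20.9 and 16.4 CPM (R of 1.44).

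In the mutants, which tell how far the response was kept without SlPIF8a or without all 4 of these PIFs, most members were still raised by 6 h of low R/FR in *slpif8a* and fewer in *slpifq*. A gene was called higher in 24FR at an adjusted p under 0.05 in edgeR's quasi-likelihood test over 17460 genes, with a log2 fold change above 1. In the cotyledons 31 of 54 members were called in *slpifq* (1.63% of all genes tested) and 48 in *slpif8a* (1.51%). The first leaf had 13 members called in *slpifq* (0.149%) and 35 in *slpif8a* (0.67%). In the hypocotyl the counts were 31 in *slpifq* (0.699%) and 45 in *slpif8a* (1.17%), and in the epicotyl 23 in *slpifq* (0.326%) and 41 in *slpif8a* (1.48%). No member was called lower in 24FR in either mutant in any organ. The share of members called was far above that of all genes in every organ and mutant. Of the 39 members that pass the filter on the 24WL libraries alone, 23, 9, 18 and 13 were called in *slpifq* and 33, 24, 30 and 27 in *slpif8a*, in the same order of organs.

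The median log2 fold change of the members was 1.15 in *slpifq*, 2.17 in *slpif8a* and 2.33 in WT in the cotyledons, where that of all genes tested was near 0 in each genotype. It was 0.99, 1.60 and 1.78 in first leaves, 1.25, 2.19 and 2.66 in hypocotyls and 1.01, 1.69 and 2.03 in epicotyls, in the same order of genotypes. All 24FR replicates lay above all 24WL replicates in 33 members in *slpifq* cotyledons (9.83% of 19169 genes), 37 in first leaves (8.04%), 42 in hypocotyls (11.0%) and 44 in epicotyls (12.9%). In *slpif8a* the same held for 52 (12.9%), 51 (13.3%), 54 (16.7%) and 52 members (19.5%). Across organs, 10 members were called in *slpifq* in all 4 organs, 5 in 3, 14 in 2, 15 in 1 and 10 in none. In *slpif8a* 29 members were called in 4 organs, 7 in 3, 14 in 2, 4 in 1 and 0 in none. These counts over organs include the 15 members tested because of their level in 24FR. The shares of all genes called in as many organs were not computed.

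**Figure D2:**
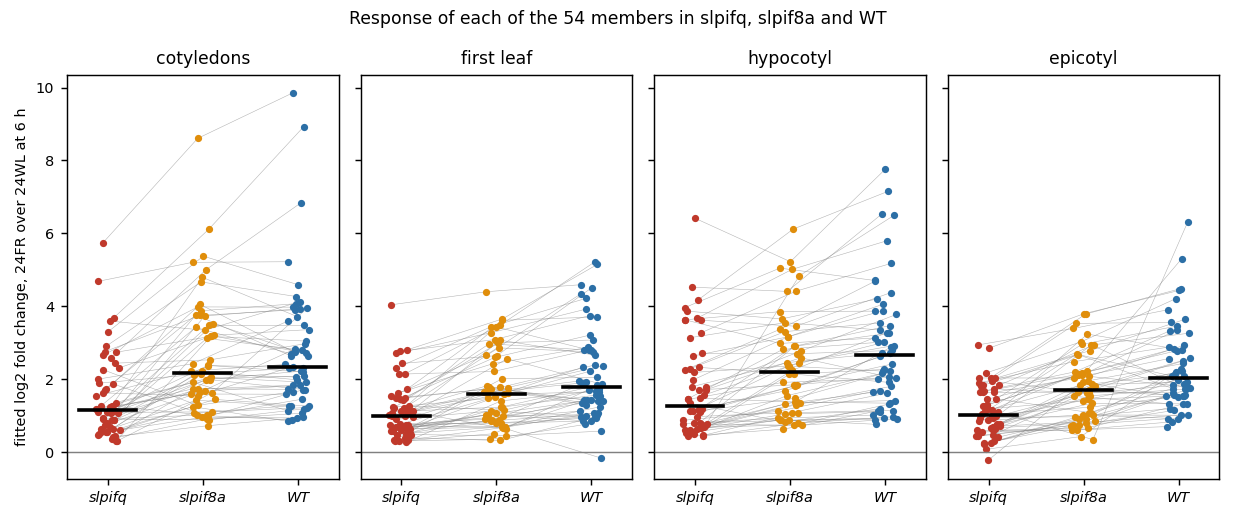
Fitted log2 fold change of 24FR over 24WL at 6 h for the 54 members (points, joined by a line for each member) in *slpifq*, *slpif8a* and WT, in one panel per organ; black bars are medians. The points of *slpifq* lay below those of *slpif8a* for 48 members in cotyledons, 50 in first leaves, 44 in hypocotyls and 48 in epicotyls, and a few points of genes at the floor in 24WL depend on the fit's prior count.

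Whether the response was smaller in *slpifq* than in *slpif8a* was tested as the difference of the 2 responses. It was called smaller in *slpifq* (edgeR's quasi-likelihood test, adjusted p under 0.05) in 13 members in cotyledons (1.68% of all genes), 1 in first leaves (0.0115%), 2 in hypocotyls (0.103%) and 2 in epicotyls (0.0974%), and larger in none. At an unadjusted p under 0.05 these counts were 31, 15, 17 and 17, where 12.1%, 1.68%, 2.53% and 2.11% of all genes passed. The median difference of the members was -0.88, -0.44, -0.53 and -0.63 on the log2 scale. DESeq2 called 18, 1, 3 and 3 members smaller in *slpifq* and limma 17, 3, 3 and 3, in the same order of organs. In fits to the libraries of a single organ, however, 1 member was called in cotyledons, 0 in hypocotyls and 5 in epicotyls. Leaving out single libraries gave 11 to 17 calls in cotyledons, 0 to 1 in first leaves, 1 to 3 in hypocotyls and 0 to 2 in epicotyls. Of the 39 members that pass the filter on the 24WL libraries alone, 10, 1, 2 and 2 were called smaller in *slpifq* with all libraries.

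In 24FR itself 21 of the 54 members were called lower in *slpifq* than in *slpif8a* in at least 1 organ and 33 in none. The share of all genes was computed for each organ but not for the 4 organs together. The counts were 19 in cotyledons (0.584% of all genes), 7 in first leaves (0.103%), 10 in hypocotyls (0.378%) and 10 in epicotyls (0.286%), at an adjusted p under 0.05 (edgeR) with a log2 difference beyond 1. With a replicate block 12 were called in first leaves, where samples with the same number correlated above 0.1 between the mutants in all 3 pairs. In the first leaf 4 were called without *slpif8a* 24FR replicate 2 or 3 and 3 without *slpifq* 24FR replicate 1 or 3, and in the hypocotyl 4 were called without *slpif8a* 24FR replicate 3 or *slpifq* 24FR replicate 1. In 24WL edgeR, DESeq2 and limma each called 0 members in every organ, where 0.166%, 0.0344%, 0.0745% and 0.063% of all genes were called in either direction. At an unadjusted p under 0.05 edgeR had 10, 0, 4 and 1 members in the 4 organs, where 20.4%, 5.17%, 3.47% and 5.2% of all genes passed, DESeq2 14, 0, 5 and 1, and limma 8, 0, 1 and 0. A set of 4 members was called lower in 24FR in every organ, namely *SlPIN3*, *IAA17*, *SlGA20ox2* and *IAA29*. Of the 39 members that pass the filter on the 24WL libraries alone, 14 in cotyledons, 4 in first leaves, 7 in hypocotyls and 8 in epicotyls were called lower. *SlGA20ox2* and *IAA29* are not among these 39.

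The 6 homeodomain factors had a median log2 fold change of 2.09 in *slpifq*, 3.20 in *slpif8a* and 3.47 in WT in the cotyledons, and of 2.13, 2.53 and 2.50 in the hypocotyl. Of the 6 genes, 5 in cotyledons, 4 in first leaves, 5 in hypocotyls and 4 in epicotyls were called in *slpifq*, and 6 in cotyledons, 5 in first leaves, 6 in hypocotyls and 5 in epicotyls in *slpif8a*. They belong mostly to the homeodomain leucine zipper (HD-ZIP) proteins, whose class II members such as Arabidopsis ATHB2 and ATHB4 are induced by shade and promote elongation. In the cotyledons *SlATHB2* had 19.1, 13.9 and 8.37 CPM in 24FR and 3.73, 4.18 and 4.48 CPM in 24WL in *slpifq*. The same gene had 56.0, 44.0 and 33.8 CPM in 24FR and 2.58, 3.59 and 2.79 CPM in 24WL in *slpif8a*. In WT it had 90.5, 54.9 and 45.6 CPM in 24FR and 4.13, 3.81 and 3.46 CPM in 24WL. No replicate of 24FR overlapped with 24WL in any genotype, and all 24FR values of *slpifq* lay below all those of *slpif8a*. The log2 fold change was 1.74 ± 0.28 (SE; edgeR adjusted p = 1.03e-05) in *slpifq* and 3.88 ± 0.28 (SE; edgeR adjusted p = 1.42e-15) in *slpif8a*, and their difference was -2.14 ± 0.40 (SE; edgeR adjusted p = 0.00102). The difference was not called in a fit to the organ alone (edgeR adjusted p = 0.104). In the hypocotyl *SlATHB2* had 32.7, 37.5 and 68.1 CPM in 24FR and 9.08, 11.0 and 14.9 CPM in 24WL in *slpifq*, against 90.8, 70.1 and 127 CPM in 24FR in *slpif8a* and 171, 143 and 151 CPM in WT, and the difference between the mutant responses was -1.18 ± 0.33 (SE; edgeR adjusted p = 0.274).

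*ATHB2* itself had, in *slpifq* cotyledons, 96.2, 70.3 and 37.0 CPM in 24FR and 13.9, 11.7 and 6.77 CPM in 24WL. In *slpif8a* the values were 204, 161 and 152 CPM in 24FR and 18.3, 7.35 and 7.32 CPM in 24WL, and in WT 290.4, 247 and 180.1 CPM and 20.4, 16.2 and 9.34 CPM. The lights did not overlap in any genotype, and *ATHB2* rose by 2.66 ± 0.32 (SE; edgeR adjusted p = 3.58e-08) on the log2 scale in *slpifq* and by 3.98 ± 0.33 (SE; edgeR adjusted p = 2.11e-13) in *slpif8a*. The difference of these responses was -1.33 ± 0.44 (SE; edgeR adjusted p = 0.0852), with an interval of -2.21 to -0.44. *ATHB2* also rose in *slpifq* in the first leaf (2.31), hypocotyl (2.29) and epicotyl (1.66).

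The *ATHB4* homolog (Solyc01g090460) differed from these. In the hypocotyl it had 54.7, 35.0 and 40.2 CPM in 24FR and 7.17, 6.65 and 6.07 CPM in 24WL in *slpifq*. It had 47.5, 44.0 and 41.3 CPM in 24FR and 8.02, 5.54 and 6.91 CPM in 24WL in *slpif8a*, and 61.1, 47.7 and 40.1 CPM and 8.23, 8.06 and 5.26 CPM in WT. The 3 genotypes overlapped in both lights. The fold change was 2.71 ± 0.21 (SE; edgeR adjusted p = 8.62e-14) in *slpifq* and 2.7 ± 0.21 (SE; edgeR adjusted p = 4.33e-14) in *slpif8a*, and their difference was 0.01, with a 95% interval of -0.56 to 0.58. In the cotyledons the difference was -0.09 (-0.79 to 0.61), in the first leaf 0.11 (-0.51 to 0.74) and in the epicotyl 0.38 (-0.19 to 0.96). It was the only member whose fitted response was smaller in *slpifq* than in *slpif8a* in just 1 of the 4 organs. The HOX16-like gene (Solyc04g005800, named after its values were seen) was called in all 4 organs in both mutants, with 2.32 in *slpifq* and 2.14 in *slpif8a* in the hypocotyl.

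Of the 5 other transcription factors, a basic helix-loop-helix protein, a pair of basic leucine zipper proteins, a CONSTANS-like zinc finger protein and a heat shock factor, 3 in cotyledons, 1 in first leaves, 3 in hypocotyls and 2 in epicotyls were called in *slpifq* and 4 in cotyledons, 3 in first leaves, 3 in hypocotyls and 4 in epicotyls in *slpif8a*. The gene *bHLH136* (Solyc06g062460) was the most responsive. In the first leaf it had 10.8, 11.3 and 3.29 CPM in 24FR and 1.60, 0.635 and 1.30 CPM in 24WL in *slpifq*. The values were 23.4, 16.7 and 18.7 CPM in 24FR and 1.84, 1.30 and 1.51 CPM in 24WL in *slpif8a*, and 52.1, 39.7 and 27.7 CPM in 24FR and 0.937, 1.31 and 1.14 CPM in 24WL in WT. The 2 lights did not overlap in any genotype but came close in *slpifq*, and *slpifq* 24FR replicates lay below those of *slpif8a*. It rose by 2.81 ± 0.47 (SE; edgeR adjusted p = 1.38e-04) in *slpifq* and by 3.65 ± 0.46 (SE; edgeR adjusted p = 6.87e-08) in *slpif8a* on the log2 scale. In the cotyledons *bHLH136* had 6.39, 2.69 and 1.82 CPM in 24FR in *slpifq* and 29.8, 22.1 and 20.6 CPM in *slpif8a*. The log2 difference of these 24FR levels was -2.7 ± 0.42 (SE; edgeR adjusted p = 1.09e-05), whereas the difference of the mutant responses was not called in any organ. WT cotyledons, at the floor in 24WL, were at least 278-fold higher in 24FR. The epicotyl call in *slpifq* (2.02) was lost without *slpifq* 24WL replicates 2 and 3 or *slpifq* 24FR replicate 1 (log2 of 1.56 to 2.06, adjusted p of 0.0556 to 0.0873).

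The gene of phytochrome B2, the photoreceptor among the members, rose in both mutants in all 4 organs. In the cotyledons it had 41.3, 45.7 and 29.8 CPM in 24FR and 6.79, 5.0 and 5.60 CPM in 24WL in *slpifq*. The levels were 86.6, 76.7 and 69.7 CPM in 24FR and 7.18, 5.48 and 4.71 CPM in 24WL in *slpif8a*, and 106, 94.0 and 64.7 CPM in 24FR and 5.46, 5.24 and 6.86 CPM in 24WL in WT. The white light values of the 3 genotypes overlapped, and the 24FR levels of *slpifq* lay below those of both other genotypes without overlap. The log2 fold change was 2.75 ± 0.19 (SE; edgeR adjusted p = 5.56e-16) in *slpifq* and 3.75 ± 0.19 (SE; edgeR adjusted p = 7.75e-22) in *slpif8a*, and their difference was -0.99 ± 0.26 (SE; edgeR adjusted p = 0.0270). This difference was not called in a fit to the organ alone and without *slpif8a* 24WL replicates 2 and 3, *slpif8a* 24FR replicate 1, *slpifq* 24WL replicate 1 or *slpifq* 24FR replicate 3 (adjusted p of 0.0732 to 0.402). In *slpifq* the gene rose by 1.62 in first leaves, 1.79 in hypocotyls and 1.13 in epicotyls on the log2 scale, the last of which was lost without *slpifq* 24FR replicate 1 (log2 1.00, adjusted p = 8.06e-04).

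The auxin genes had low 24FR levels in *slpifq*. All 5 were called in *slpif8a* in every organ, but in *slpifq* only 2 in cotyledons, 1 in first leaves, 3 in hypocotyls and 2 in epicotyls. The difference between the mutant responses was called for all 5 in the cotyledons (1.68% of all genes), but only for *IAA17* in a fit to the cotyledons alone. In 24FR 5 of 5 were called lower in *slpifq* in cotyledons, 3 in first leaves, 4 in hypocotyls and 4 in epicotyls. *IAA17*, *IAA22* and *IAA29* encode Aux/IAA proteins, short-lived repressors of auxin response that auxin itself induces. *IAA17* (Solyc06g008590) had 10.5, 12.9 and 8.31 CPM in 24FR and 4.01, 5.0 and 4.16 CPM in 24WL in *slpifq* cotyledons. In *slpif8a* cotyledons it had 41.5, 35.9 and 35.4 CPM in 24FR and 4.40, 3.21 and 2.97 CPM in 24WL. WT cotyledons had 43.1, 34.6 and 28.0 CPM in 24FR and 7.23, 5.08 and 4.18 CPM in 24WL. *slpif8a* overlapped with WT in 24FR, and all *slpifq* replicates lay far below them. *IAA17* rose by 1.26 ± 0.22 (SE; edgeR adjusted p = 3.78e-05) in *slpifq* and by 3.42 ± 0.22 (SE; edgeR adjusted p = 1.48e-17) in *slpif8a*, and the difference of -2.16 ± 0.31 (SE; edgeR adjusted p = 1.17e-05) was the only one among the members that was also called in a fit to the cotyledons alone.

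*IAA17* was also the only member called in all 4 organs for this difference. In the epicotyl it had 12.1, 15.8 and 12.1 CPM in 24FR and 3.27, 4.28 and 3.88 CPM in 24WL in *slpifq*, against 39.1, 38.6 and 39.0 CPM in 24FR and 3.02, 2.65 and 4.47 CPM in 24WL in *slpif8a* and 57.4, 56.2 and 52.6 CPM in 24FR and 4.62, 4.98 and 4.50 CPM in 24WL in WT. The difference was -1.72 ± 0.29 (SE; edgeR adjusted p = 0.00602) in epicotyls, -1.76 ± 0.33 (SE; edgeR adjusted p = 0.0160) in first leaves and -1.36 ± 0.27 (SE; edgeR adjusted p = 0.0148) in hypocotyls. The call was lost in the epicotyl without *slpif8a* 24WL replicate 2 (edgeR adjusted p = 0.0534). In the first leaf it was lost in a fit to the organ alone and without *slpif8a* 24WL replicates 1, 2 and 3, *slpif8a* 24FR replicates 2 and 3, *slpifq* 24WL replicates 1 and 3 or *slpifq* 24FR replicates 1 and 3 (adjusted p of 0.0506 to 0.175). The hypocotyl call was lost in a fit to the organ alone and without *slpif8a* 24WL replicate 2, *slpif8a* 24FR replicate 3, *slpifq* 24WL replicates 2 and 3 or *slpifq* 24FR replicate 1 (adjusted p of 0.0698 to 0.133).

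**Figure D3:**
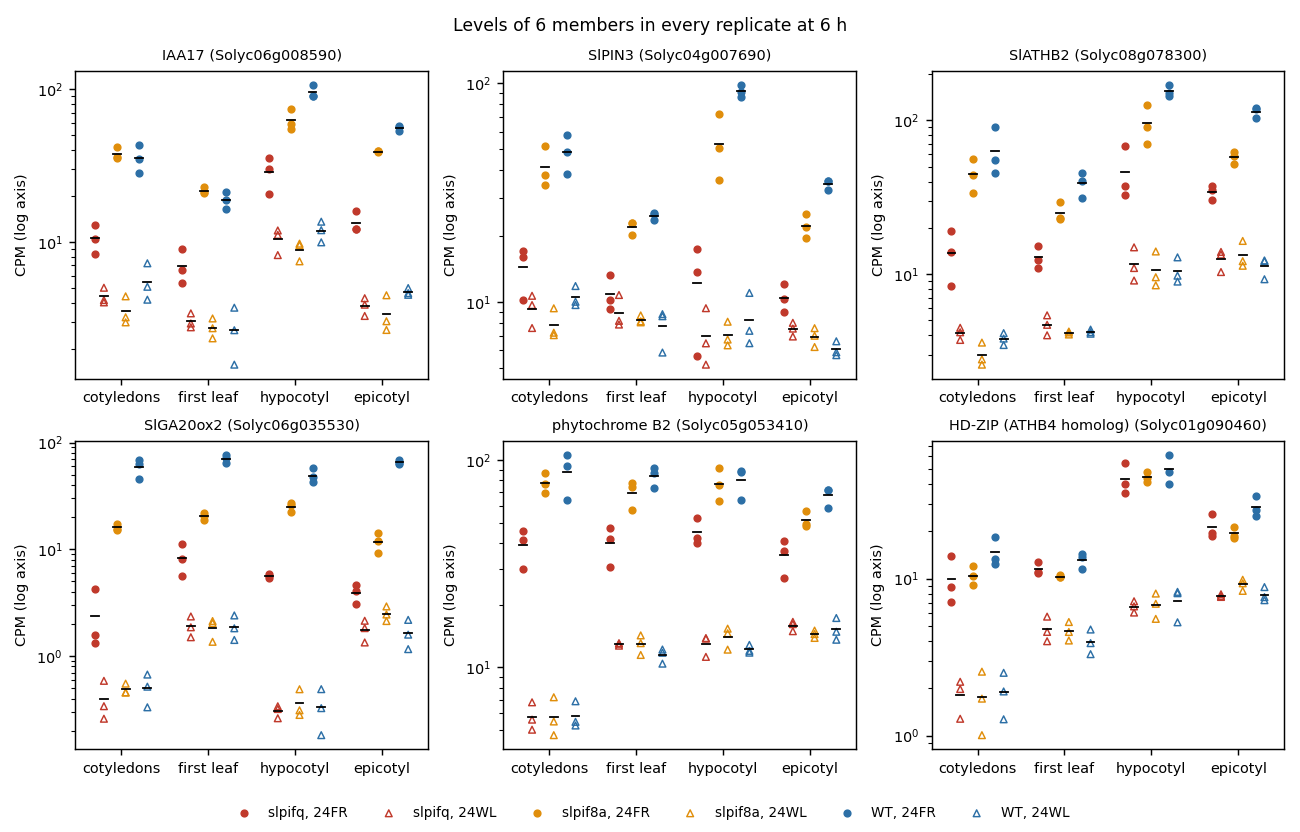
CPM (log axis) at 6 h in each replicate of 6 members (*IAA17*, *SlPIN3*, *SlATHB2*, *SlGA20ox2*, phytochrome B2 and the *ATHB4* homolog) in *slpifq*, *slpif8a* and WT, for each organ; filled symbols are 24FR, open symbols 24WL and bars the means of 3 replicates. The gap between the lights narrowed in *slpifq* for the first 5 genes, mostly through lower 24FR values, and was similar in *slpifq* and *slpif8a* for the *ATHB4* homolog in the cotyledons, first leaf and hypocotyl.

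*SlPIN3* (Solyc04g007690) encodes an auxin efflux carrier, whose Arabidopsis homolog redirects auxin in shaded stems. Its response was not called in *slpifq* in any organ. In the hypocotyl *SlPIN3* had 5.68, 17.4 and 13.7 CPM in 24FR and 5.16, 6.46 and 9.36 CPM in 24WL in *slpifq*. The *slpif8a* hypocotyl had 50.5, 36.2 and 72 CPM in 24FR and 6.33, 6.73 and 8.11 CPM in 24WL. The WT hypocotyl had 98.5, 90.8 and 86.6 CPM in 24FR and 6.47, 7.37 and 11.0 CPM in 24WL. In *slpifq* the lights overlapped, whereas in *slpif8a* and WT every 24FR value lay well above every 24WL value. The fold change was 0.81 ± 0.24 (SE; edgeR adjusted p = 0.0359) in *slpifq*, below the threshold of 1, and 2.90 ± 0.25 (SE; edgeR adjusted p = 5.16e-13) in *slpif8a*. Their difference was -2.10 ± 0.34 (SE; edgeR adjusted p = 7.85e-04), which was lost in a fit to the organ alone (edgeR adjusted p = 0.195). In the cotyledons the response was 0.64 ± 0.25 (SE; edgeR adjusted p = 0.0553) in *slpifq* and 2.38 ± 0.25 (SE; edgeR adjusted p = 1.41e-10) in *slpif8a*, with a difference of -1.74 ± 0.34 (SE; edgeR adjusted p = 0.00227) that was not called in a fit to the organ alone (edgeR adjusted p = 0.0725). In 24FR *SlPIN3* was called lower in *slpifq* than in *slpif8a* in every organ, with log2 differences of -1.51 in cotyledons, -2.11 in hypocotyls, -1.01 in first leaves and -1.09 in epicotyls. The call of the first leaf was lost with limma and without *slpif8a* 24FR replicates 1, 2 and 3 or *slpifq* 24FR replicates 1 and 3 (log2 of -1.07 to -0.91, adjusted p of 0.0229 to 0.204). The call of the epicotyl was lost without *slpif8a* 24FR replicate 3 or *slpifq* 24FR replicate 1 (log2 of -0.99 in both, adjusted p of 0.0537 to 0.0850).

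*IAA29* (Solyc08g021820), *IAA22* (Solyc06g008580) and the *GH3* gene, all named after their values were seen, moved in the same way in the cotyledons. *IAA29* had 10.1, 10.2 and 4.68 CPM in 24FR and 4.52, 6.26 and 2.77 CPM in 24WL in *slpifq*, against 38.4, 32.1 and 50.4 CPM in 24FR and 4.55, 4.86 and 4.44 CPM in 24WL in *slpif8a* and 36.3, 22.2 and 22.4 CPM in 24FR and 5.02, 3.42 and 3.30 CPM in 24WL in WT. Its lights overlapped in *slpifq* only, and the difference of the mutant responses was -2.24 ± 0.49 (SE; edgeR adjusted p = 0.00572). *IAA22* had 3.64, 4.51 and 2.04 CPM in 24FR in *slpifq*, 14.3, 10.3 and 8.24 CPM in *slpif8a* and, in WT, 15.3, 10.6 and 7.16 CPM, and its difference was -2.45 ± 0.55 (SE; edgeR adjusted p = 0.00862). For the *GH3* gene, 4.07, 7.32 and 1.16 CPM in 24FR and 3.68, 1.86 and 0.320 CPM in 24WL were counted in *slpifq* and 56.9, 69.3 and 33.7 CPM in 24FR and 3.49, 1.83 and 0.503 CPM in 24WL in *slpif8a*. Its replicates spread widely in 24WL in both mutants, and the difference of -3.69 ± 0.79 (SE; edgeR adjusted p = 0.00531) was the most negative of the 13. None of the 3 differences was called in a fit to the cotyledons alone, and that of the *GH3* gene was lost in a fit to the organ alone and without *slpifq* 24WL replicate 1 (adjusted p of 0.0682 to 0.435).

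Of the 10 *SAUR* genes, 9 passed the filter of the test only through their level in 24FR, so that counts of their calls describe genes that had to be high there. Of the 10 genes, 4 in cotyledons, 0 in first leaves, 10 in hypocotyls and 8 in epicotyls were called in *slpifq*, and 10 in cotyledons, 7 in first leaves, 10 in hypocotyls and 10 in epicotyls in *slpif8a*. Their median log2 fold change in the hypocotyl was 3.63 in *slpifq* and 3.55 in *slpif8a*, while in the cotyledons it was 1.03 in *slpifq* and 2.32 in *slpif8a*. The hypocotyl folds include *SAUR9* and Solyc01g110790, which were at the floor in 24WL in *slpifq*. The 24FR levels were lower in *slpifq* than in *slpif8a* in both organs. Their median log2 difference was -0.68 in hypocotyls (-1.47 to -0.15) and -0.94 in cotyledons (-1.37 to -0.04). None of the 10 was called for a difference of the mutant responses in any organ, and in 24FR 1 was called lower in *slpifq*, in the hypocotyl. Whether the difference between the mutants itself differed between organs was not tested. The *SAUR* gene that passed on 24WL alone, Solyc01g110660, was called in *slpifq* in the hypocotyl (2.64) and epicotyl (1.29) but not in the cotyledons (0.54) or first leaf (0.76), and in *slpif8a* in all 4 organs. *SAUR9* (Solyc01g110630) had 0.327, 0.794 and 1.56 CPM in 24FR and 0.0846, 0.0798 and 0.0291 CPM in 24WL in the *slpifq* hypocotyl. In *slpif8a* it had 2.02, 0.996 and 3.65 CPM in 24FR and 0.0575, 0.0517 and 0.0842 CPM in 24WL, and in WT 7.27, 4.58 and 3.61 CPM in 24FR and 0.195, 0.0363 and 0.0306 CPM in 24WL. The lights did not overlap in any genotype. White light was at the floor in both mutants, and 24FR was at least 10.6-fold higher in *slpifq* and at least 26.8-fold higher in *slpif8a*. In the cotyledons of *slpifq* *SAUR9* had 0.757, 1.23 and 0.385 CPM in 24FR and 0.509, 0.388 and 0.586 CPM in 24WL, with overlap, and the response of 0.68 ± 0.63 (SE; edgeR adjusted p = 0.479) was not called.

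The gene Solyc01g110790, annotated as SAUR20, was 1 of the 3 members with the largest mean response in *slpifq*. In the epicotyl it had 4.15, 5.21 and 4.49 CPM in 24FR and 0.737, 0.866 and 0.259 CPM in 24WL in *slpifq*. The *slpif8a* epicotyl had 8.95, 9.98 and 5.08 CPM in 24FR and 0.618, 0.470 and 0.633 CPM in 24WL, and the WT epicotyl 12.3, 12.9 and 7.59 CPM in 24FR and 0.706, 0.439 and 0.373 CPM in 24WL. The lights did not overlap in any genotype, with a fold change of 2.85 ± 0.40 (SE; edgeR adjusted p = 6.80e-06) in *slpifq* and 3.80 ± 0.42 (SE; edgeR adjusted p = 2.40e-09) in *slpif8a* and a difference of -0.95 (-2.10 to 0.21). In the hypocotyl *slpifq* was at the floor in 24WL and at least 14.1-fold higher in 24FR, with 0.588, 1.19 and 1.78 CPM. *SAUR11* had 1.31, 3.14 and 5.54 CPM in 24FR and 0.0564, 0.160 and 0.203 CPM in 24WL in the *slpifq* hypocotyl and 6.65, 3.37 and 7.85 CPM in 24FR and 0.230, 0.181 and 0.421 CPM in 24WL in the *slpif8a* hypocotyl, with fold changes of 4.52 ± 0.63 (SE; edgeR adjusted p = 1.10e-06) and 4.41 ± 0.56 (SE; edgeR adjusted p = 5.06e-08).

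Among the 3 genes of gibberellins and cytokinins, *SlGA20ox2* was called in both mutants in every organ, but at levels far below WT. In the hypocotyl it had 5.62, 5.37 and 5.91 CPM in 24FR and 0.339, 0.319 and 0.261 CPM in 24WL in *slpifq*. In *slpif8a* the hypocotyl had 22.4, 27.3 and 25.8 CPM in 24FR and 0.489, 0.310 and 0.281 CPM in 24WL. In WT it had 57.3, 47.7 and 42.3 CPM in 24FR and 0.325, 0.182 and 0.490 CPM in 24WL. The 3 genotypes were separated without overlap in 24FR and overlapped in 24WL. *SlGA20ox2* rose by 4.18 ± 0.32 (SE; edgeR adjusted p = 4.93e-14) in *slpifq* and by 6.12 ± 0.30 (SE; edgeR adjusted p = 4.35e-22) in *slpif8a* on the log2 scale. In the epicotyl it had 4.60, 3.10 and 4.10 CPM in 24FR and 1.83, 1.34 and 2.14 CPM in 24WL in *slpifq*, 9.30, 11.9 and 14.2 CPM in 24FR and 2.13, 2.92 and 2.45 CPM in 24WL in *slpif8a* and 69.2, 62.4 and 64.1 CPM in 24FR and 1.59, 1.16 and 2.18 CPM in 24WL in WT. The *slpif8a* values of 24FR were thus closer to those of *slpifq* than to those of WT. The epicotyl response in *slpifq* was 1.16 ± 0.25 (SE; edgeR adjusted p = 0.00353), which was lost with limma and without *slpifq* 24WL replicate 2 (log2 of 0.83 to 0.99, adjusted p of 0.00580 to 0.0205), and that in *slpif8a* was 2.23 ± 0.24 (SE; edgeR adjusted p = 1.35e-09). In 24FR *SlGA20ox2* was lower in *slpifq* than in *slpif8a*, with log2 differences of -2.77 ± 0.26 (SE; edgeR adjusted p = 4.32e-11) in cotyledons, -1.31 in first leaves, -2.16 in hypocotyls and -1.58 in epicotyls. The difference of the responses was -2.43 ± 0.59 (SE; edgeR adjusted p = 0.0163) in the cotyledons, which was not called in a fit to the organ alone and without *slpifq* 24WL replicate 3 (adjusted p of 0.121 to 0.335).

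*Cytokinin oxidase 4* was variable between replicates. In the cotyledons it had 8.42, 18.9 and 28.7 CPM in 24FR and 0.339, 0.949 and 3.36 CPM in 24WL in *slpifq*, 61.7, 56.5 and 75.3 CPM in 24FR and 2.68, 4.66 and 11.7 CPM in 24WL in *slpif8a* and 64.4, 92.3 and 107 CPM in 24FR and 1.33, 3.53 and 9.65 CPM in 24WL in WT. The lights did not overlap in any genotype. It rose by 3.59 ± 0.71 (SE; edgeR adjusted p = 1.87e-04) in *slpifq* and by 3.34 ± 0.61 (SE; edgeR adjusted p = 5.84e-05) in *slpif8a*. In the epicotyl it was at 0.250, 0.321 and 0.293 CPM in 24FR in *slpifq*, 0.321, 1.01 and 0.749 CPM in *slpif8a* but 2.23, 2.72 and 2.32 CPM in WT, and was called in neither mutant. The third gene, Solyc02g089350 of the gibberellin-regulated peptide family, rose by 2.31 in *slpifq* cotyledons and 3.20 in *slpif8a* cotyledons on the log2 scale.

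Of the 9 genes of the cell wall, secretion and cytoskeleton, 5 in cotyledons, 1 in first leaves, 2 in hypocotyls and 2 in epicotyls were called in *slpifq*, and 7 in cotyledons, 3 in first leaves, 4 in hypocotyls and 5 in epicotyls in *slpif8a*. They encode an expansin, a xyloglucan endotransglucosylase, an arabinogalactan protein, a pair of peroxidases, an ascorbate oxidase-like and an early nodulin-like protein, a leucine-rich repeat protein and a beta-tubulin. *EXPA11* (Solyc04g081870) encodes an expansin, a protein that loosens cell walls. In the cotyledons it had 80.8, 56.8 and 32.3 CPM in 24FR and 43.9, 43.5 and 37.1 CPM in 24WL in *slpifq*. It had 165, 95.2 and 78.8 CPM in 24FR and 31.3, 29.2 and 24.7 CPM in 24WL in *slpif8a*, and 184, 124 and 89.3 CPM in 24FR and 43.0, 34.0 and 43.9 CPM in 24WL in WT. The lights overlapped in *slpifq* but not in *slpif8a* or WT. The response was 0.45 ± 0.24 (SE; edgeR adjusted p = 0.188) in *slpifq* and 1.99 ± 0.25 (SE; edgeR adjusted p = 2.67e-08) in *slpif8a*, and the difference of -1.54 ± 0.35 (SE; edgeR adjusted p = 0.00871) was not called in a fit to the organ alone and without *slpif8a* 24FR replicate 1 or *slpifq* 24FR replicate 3 (adjusted p of 0.0537 to 0.388). In the hypocotyl and epicotyl *EXPA11* did rise in *slpifq*, by 1.17 ± 0.24 (SE; edgeR adjusted p = 0.00135) and 1.04 ± 0.24 (SE; edgeR adjusted p = 0.00630), the second of which was lost without *slpifq* 24FR replicate 1 (log2 0.94, adjusted p = 0.0323).

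The leucine-rich repeat protein gene Solyc01g086920 had one of the smallest mean responses in *slpifq*. In the cotyledons it had 163, 149 and 121 CPM in 24FR and 110.3, 96.5 and 88.9 CPM in 24WL in *slpifq*, 244, 219.9 and 208 CPM in 24FR and 99.0, 78.7 and 72.4 CPM in 24WL in *slpif8a* and 274, 246 and 219 CPM in 24FR and 98.1, 108 and 101 CPM in 24WL in WT. All replicates of 24FR lay above those of 24WL in each genotype. Its response was 0.55 ± 0.11 (SE; edgeR adjusted p = 2.62e-04) in *slpifq*, under the fold threshold, and 1.42 ± 0.11 (SE; edgeR adjusted p = 3.22e-14) in *slpif8a*. The difference was -0.87 ± 0.16 (SE; edgeR adjusted p = 7.25e-04), which was not called in a fit to the organ alone (edgeR adjusted p = 0.143). The peroxidase gene Solyc08g069040, named after its values were seen, was called for the difference in the epicotyl, with 7.57, 11.3 and 6.68 CPM in 24FR and 4.69, 3.77 and 4.58 CPM in 24WL in *slpifq* and 26.1, 42.0 and 38.6 CPM in 24FR and 4.46, 3.19 and 6.33 CPM in 24WL in *slpif8a*. The difference of -1.97 ± 0.44 (SE; edgeR adjusted p = 0.0414) was lost with no filter on low counts, in a fit to the organ alone and without *slpif8a* 24WL replicates 1 and 2, *slpif8a* 24FR replicates 2 and 3, *slpifq* 24WL replicates 1, 2 and 3 or *slpifq* 24FR replicates 1 and 3 (adjusted p of 0.0559 to 0.263).

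Of the 15 other genes, 8 in cotyledons, 4 in first leaves, 5 in hypocotyls and 3 in epicotyls were called in *slpifq*, and 12 in cotyledons, 8 in first leaves, 13 in hypocotyls and 9 in epicotyls in *slpif8a*. A pair of them, Solyc05g054750 and Solyc04g010285, share the annotation of an uncharacterised plant protein family, and had the largest mean responses in *slpifq* together with Solyc01g110790. The remaining 13 encode a glycosyltransferase, a DUF241 protein, an isoprenylated heavy metal-associated protein, a pair of transmembrane proteins, a major facilitator transporter, a ROTUNDIFOLIA-like peptide, a RING E3 ubiquitin ligase, a Phox/Bem1p protein, a pair of hypothetical proteins and a pair of unknown proteins. Solyc05g054750 had 39.0, 43.5 and 42.9 CPM in 24FR and 1.24, 1.60 and 2.03 CPM in 24WL in *slpifq* cotyledons. In *slpif8a* they had 62.7, 64.9 and 68.3 CPM in 24FR and 1.67, 1.66 and 1.97 CPM in 24WL, and in WT 76.7, 76.4 and 62.4 CPM in 24FR and 1.33, 2.10 and 2.22 CPM in 24WL. White light values were near 1 to 2 CPM in all genotypes and the lights were far apart. It rose by 4.68 ± 0.20 (SE; edgeR adjusted p = 4.23e-25) in *slpifq* and by 5.21 ± 0.19 (SE; edgeR adjusted p = 1.38e-27) in *slpif8a*, and the difference was -0.52 ± 0.27 (SE; edgeR adjusted p = 0.274), with a 95% interval of -1.07 to 0.02. Solyc04g010285 had 27.4, 35.4 and 15.0 CPM in 24FR and 0.226, 0.690 and 0.480 CPM in 24WL in *slpifq* cotyledons and 81.9, 76.8 and 46.1 CPM in 24FR and 0.202, 0.172 and 0.137 CPM in 24WL in *slpif8a* cotyledons. Its difference of -2.87 ± 0.71 (SE; edgeR adjusted p = 0.0188) was not called in a fit to the organ alone and without *slpif8a* 24WL replicates 2 and 3 or *slpifq* 24WL replicate 2 (adjusted p of 0.0537 to 0.352). The *slpif8a* values in 24WL were near the floor, and the 24WL level of *slpifq* was higher by 1.48 on the log2 scale, which was not called. The size of this difference is therefore uncertain. In the epicotyl, with 17.1, 12.1 and 10.6 CPM in 24FR and 4.22, 4.83 and 3.66 CPM in 24WL in *slpifq* and 14.7, 11.7 and 11.9 CPM in 24FR and 3.98, 4.60 and 3.68 CPM in 24WL in *slpif8a*, its response was 1.64 ± 0.27 (SE; edgeR adjusted p = 8.27e-05) in *slpifq* and 1.64 ± 0.27 (SE; edgeR adjusted p = 1.34e-05) in *slpif8a*.

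The glycosyltransferase gene Solyc10g079320 was raised in WT stems and nearly silent in those of the mutants. In the epicotyl it had 0.125, 0.347 and 0.358 CPM in 24FR in *slpifq* and 10.8, 6.65 and 7.56 CPM in WT. In *slpif8a* epicotyls it was at the floor in both lights. In the hypocotyl 24FR gave 0.0653, 0.427 and 0.507 CPM in *slpifq*, 1.68, 0.431 and 0.612 CPM in *slpif8a* but 15.0, 13.2 and 11.8 CPM in WT, and *slpif8a*, at the floor in 24WL, was at least 11.0-fold higher in 24FR. In the cotyledons it had 2.37, 1.52 and 0.826 CPM in 24FR and 0.452, 1.60 and 1.76 CPM in 24WL in *slpifq*, 6.20, 6.45 and 5.60 CPM in 24FR and 0.960, 2.59 and 2.24 CPM in 24WL in *slpif8a* and 25.3, 25.9 and 15.5 CPM in 24FR and 0.738, 2.04 and 1.45 CPM in 24WL in WT. The response was not called in *slpifq* (0.30 ± 0.55 (SE; edgeR adjusted p = 0.739)) and was called in *slpif8a* (1.63 ± 0.48 (SE; edgeR adjusted p = 0.0164)), which was lost in a fit to the organ alone and without *slpif8a* 24WL replicate 1 (log2 of 1.32 to 1.62, adjusted p of 0.0557 to 0.108). In the first leaf its lights overlapped in all genotypes, WT included, where R at 6 h was -0.14.

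Solyc11g013450, a hypothetical protein gene, had 1 of the 3 smallest mean responses in *slpifq*. In the epicotyl it had 4.02, 4.25 and 4.17 CPM in 24FR and 3.63, 3.44 and 4.76 CPM in 24WL in *slpifq*, 5.34, 4.94 and 5.49 CPM in 24FR and 3.57, 4.39 and 3.76 CPM in 24WL in *slpif8a* and 12.2, 12.5 and 13.1 CPM in 24FR and 3.15, 2.50 and 2.53 CPM in 24WL in WT. The lights overlapped in *slpifq*, lay close in *slpif8a* and were far apart in WT. The response was 0.07 ± 0.21 (SE; edgeR adjusted p = 0.889) in *slpifq* and 0.42 ± 0.21 (SE; edgeR adjusted p = 0.138) in *slpif8a*. The transmembrane protein gene Solyc01g058320 had 29.6, 33.1 and 18.6 CPM in 24FR and 20.6, 16.8 and 21.7 CPM in 24WL in *slpifq* cotyledons, 55.7, 47.0 and 37.5 CPM in 24FR and 19.6, 19.7 and 19.6 CPM in 24WL in *slpif8a* cotyledons and 41.8, 46.5 and 36.6 CPM in 24FR and 23.5, 24.9 and 21.0 CPM in 24WL in WT cotyledons. Only *slpifq* had overlapping lights, and the response was 0.46 ± 0.18 (SE; edgeR adjusted p = 0.0601) in *slpifq* and 1.24 ± 0.18 (SE; edgeR adjusted p = 5.95e-07) in *slpif8a*, with a difference of -0.78 ± 0.25 (SE; edgeR adjusted p = 0.0769).

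The DUF241 protein gene Solyc02g083120, of unknown function, and the unknown gene Solyc07g007270, the last named after its values were seen, were called for the difference of the mutant responses in the cotyledons. Solyc02g083120 had 4.02, 8.14 and 6.38 CPM in 24FR and 1.64, 3.19 and 3.36 CPM in 24WL in *slpifq*. In *slpif8a* cotyledons it had 33.8, 30.2 and 29.6 CPM in 24FR and 3.39, 3.03 and 1.97 CPM in 24WL, and in WT cotyledons 36.1, 37.1 and 27.6 CPM in 24FR and 2.58, 3.04 and 3.35 CPM in 24WL. White light values overlapped between the genotypes, and the *slpifq* values of 24FR lay far below the others. The difference was -2.31 ± 0.46 (SE; edgeR adjusted p = 0.00254), which was not called in a fit to the organ alone (edgeR adjusted p = 0.0682). Solyc07g007270 had 3.50, 8.43 and 2.37 CPM in 24FR and 3.28, 1.94 and 4.00 CPM in 24WL in *slpifq* and 33.9, 30.2 and 16.3 CPM in 24FR and 2.12, 2.31 and 1.42 CPM in 24WL in *slpif8a*. Its lights overlapped in *slpifq*, and the difference of -3.13 ± 0.64 (SE; edgeR adjusted p = 0.00325) was not called in a fit to the organ alone (edgeR adjusted p = 0.132).

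A comparison with WT at 6 h needs genes chosen without the 6 h samples. A list was therefore taken from 3 h and 24 h alone, with R of at least 0.7 in at least 7 of those 8 pairs. It held 43 genes, of which 42 were members (97.7% of the list and 77.8% of the members). The response at 6 h was called smaller in *slpifq* than in WT (edgeR's quasi-likelihood test of the difference, adjusted p under 0.05) in 13 of the 43 in cotyledons (2.92% of all genes), 7 in first leaves (0.16%), 14 in hypocotyls (0.802%) and 10 in epicotyls (0.235%). A set of 3 of the 43, *SAUR9*, Solyc01g110647 and Solyc10g079320, passed the filter only through the 24FR libraries of WT, and without them 11, 7, 13 and 9 were called. The difference was negative in 42, 41, 40 and 41 of the 43, with medians of -1.17, -1.07, -0.92 and -1.17 on the log2 scale. In the cotyledons 20 were called without WT 24FR replicate 3. In the first leaf 4 were called without WT 24FR replicate 1 and 3 without WT 24WL replicate 2, and in the hypocotyl 9 were called without *slpifq* 24FR replicate 1.

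Members called smaller in *slpifq* than in WT in all 4 organs were phytochrome B2, *IAA17*, *SlGA20ox2*, *SlATHB2* and Solyc11g013450. For *SlGA20ox2* the difference from WT was -4.27 ± 0.63 (SE; edgeR adjusted p = 1.83e-05) in cotyledons, -3.07 ± 0.38 (SE; edgeR adjusted p = 2.79e-07) in first leaves, -2.98 ± 0.53 (SE; edgeR adjusted p = 5.19e-04) in hypocotyls and -4.15 ± 0.36 (SE; edgeR adjusted p = 9.37e-12) in epicotyls. For *SlATHB2* it was -2.33 ± 0.40 (SE; edgeR adjusted p = 2.33e-04), -1.76 ± 0.39 (SE; edgeR adjusted p = 0.0166), -1.90 ± 0.34 (SE; edgeR adjusted p = 5.19e-04) and -1.90 ± 0.34 (SE; edgeR adjusted p = 5.27e-04) in the same order. Of the other 38 genes, 3 were called in 3 organs, 5 in 2, 5 in 1 and 25 in none. The floor of white light in WT cotyledons makes the cotyledon differences of Solyc04g010285 and *bHLH136* depend on the fit's prior count, and they are not given.

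In *slpif8a* few of these genes were called for a response smaller than in WT. It was called smaller in 0 of the 43 genes in cotyledons (0.0286% of all genes), 1 in first leaves (0.0286%), 0 in hypocotyls (0.00573%) and 2 in epicotyls (0.0229%) by edgeR's quasi-likelihood test. At an unadjusted p under 0.05 the counts were 5, 4, 8 and 11, where 2.11%, 3.12%, 1.62% and 2.12% of all genes passed, limma called 3, 2, 1 and 3 and DESeq2 0, 2, 0 and 3. In the hypocotyl 1 was called by edgeR without *slpif8a* 24FR replicate 3. The medians were -0.06, -0.33, -0.46 and -0.57. The genes called were *SlGA20ox2*, with -1.74 ± 0.37 (SE; edgeR adjusted p = 0.0287) in the first leaf and -3.07 ± 0.34 (SE; edgeR adjusted p = 7.05e-08) in the epicotyl, and Solyc11g013450, with -1.78 ± 0.29 (SE; edgeR adjusted p = 3.46e-04) in the epicotyl. The first leaf call of *SlGA20ox2* was lost in a fit to the organ alone and without WT 24WL replicates 2 and 3, WT 24FR replicates 1, 2 and 3, *slpif8a* 24WL replicates 1 and 2 or *slpif8a* 24FR replicates 1, 2 and 3 (adjusted p of 0.0548 to 0.266).

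Of the study's own candidate genes for low R/FR, 14 in all with 11 in the table of the rule, 5 were members, namely *ATHB2*, *SlATHB2*, *SlGA20ox2*, *SAUR9* and *EXPA11*, and that list was chosen by the study on these samples. Of the 12 that were tested, 7 were called higher in 24FR in *slpifq* cotyledons (1.63% of all genes), 3 in first leaves (0.149%), 6 in hypocotyls (0.699%) and 5 in epicotyls (0.326%). Only 1 was called lower, in cotyledons (0.578%). In *slpif8a* 10, 7, 8 and 8 were called higher (1.51%, 0.67%, 1.17% and 1.48%) and 1, 0, 1 and 1 lower (0.63%, 0.206%, 1.05% and 0.624%). Without the 5 members, 4, 0, 1 and 0 of the other 7 were called higher in *slpifq* and 5, 3, 3 and 3 in *slpif8a*. Of 10 tomato homologs of Arabidopsis shade genes, 4 were members. These homologs were found through the study's annotation, which covers mostly genes that respond, so that the list is no sample of all genes. In this list 5, 3, 6 and 3 genes were called higher in *slpifq* and 8, 6, 6 and 6 in *slpif8a*. Without the 4 members, 2, 0, 2 and 0 of the other 6 were called higher in *slpifq* and 4, 2, 2 and 2 in *slpif8a*. None of the *SlPIF* genes was a member. Of 7 tested, 2 were called lower in 24FR in *slpifq* cotyledons (0.578% of all genes) and 1 in the *slpifq* hypocotyl (0.435%), while 1 was called higher in *slpif8a* cotyledons (1.51%).

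At the edge of the rule, 25 genes reached 0.7 in 9 of the 12 pairs and were left out. Their tenth-highest R was 0.190 to 0.698, whereas the lowest among the members was 0.702, in the Phox/Bem1p family gene Solyc02g091670. The BES1/BZR1 gene Solyc07g062260, from a family of brassinosteroid-response transcription factors, had the largest median R of the genes left out (1.64), above that of many members. A bound of 0.5 in place of 0.7 gave 115 genes, and a bound of 1 gave 29.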

How the data were processed

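STAR 2.7.9a (alignment) and HTSeq 0.13.5 (counting) were used by the authors to make the deposited raw counts, and with edgeR 3.40.2 they computed the deposited normalised signal, CPM per effective library size after a filter on low counts. Members were chosen from, and levels are given in, this deposited CPM. WT samples of 6 h stand in both tables, which were scaled separately, so that their CPM differ slightly between the time course and the genotypes. Gene names and roles come from the study's supplementary annotation, which held all 54 members.

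The tests used the deposited counts of 72 libraries of 6 h in edgeR 4.0.16 (R 4.3.3): TMM scaling, genes with CPM above 5 in at least 3 libraries (17460), a mean for every combination of genotype, organ and light, the quasi-likelihood test and Benjamini-Hochberg adjustment over all genes. Reads without a gene (8.54 to 17.0% of a library) were left out. SE were taken as the absolute log2 value divided by the square root of the F statistic of its test. Intervals are approximate 95% intervals of the log2 value built from these SE. A group with at most 3 counts in every replicate is at the floor, and folds against it are lower bounds from the mean floor of its 3 libraries, which cover counting error only. The scripts were tested on simulated data.

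The members and lists were chosen with earlier results of these data known. Named with replicate values are the 10 members of largest median R, the 5 named by the study, the 3 largest and 3 smallest mean responses in *slpifq* and up to 5 members called for the difference of the mutants in most organs, 19 genes in all, and others are said to be named after their values were seen. Alternatives were DESeq2 1.42.0 (its test, or its size factors in edgeR), limma 3.58.1 on log2(deposited CPM + 1), other filters, a fit to 1 organ, a replicate block and each library left out. Fits with a library left out kept the dispersion trend of the whole fit and estimated the quasi-likelihood dispersions anew. The search of promoters was not run and no sequence was used here.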

Additional observations from a re-analysis of the deposited data

Results flagged for a closer look

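The values in this section are differences between genotypes in the response to low R/FR that passed the edgeR test of the difference itself, on the log2 scale. In the cotyledons the response of *slpifq* minus that of *slpif8a* was -3.69 in the *GH3* gene, -2.45 in *IAA22*, -2.24 in *IAA29*, -2.16 in *IAA17* and -1.74 in *SlPIN3*, which are all 5 auxin genes among the members. It was -2.43 in *SlGA20ox2*, -2.14 in *SlATHB2*, -1.54 in *EXPA11* and -0.99 in phytochrome B2. It was -3.13 in Solyc07g007270, -2.87 in Solyc04g010285, -2.31 in Solyc02g083120 and -0.87 in Solyc01g086920. The white light level of Solyc04g010285 in *slpif8a* was near the floor, so that its size is uncertain. Of all genes tested, 1.68% were called for a smaller response in *slpifq* than in *slpif8a* cotyledons. In a fit to the cotyledons alone *IAA17* was the only member called.

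In the other organs the same difference was -1.76 for *IAA17* in first leaves, -2.10 for *SlPIN3* and -1.36 for *IAA17* in hypocotyls, and -1.97 for the peroxidase gene Solyc08g069040 and -1.72 for *IAA17* in epicotyls. Of the 43 genes chosen at 3 h and 24 h alone, some had a response called smaller in *slpifq* than in WT. These were 13 in cotyledons (2.92% of all genes), 7 in first leaves (0.16%), 14 in hypocotyls (0.802%) and 10 in epicotyls (0.235%). Without the 3 genes that passed the filter only through the 24FR libraries of WT, the counts were 11, 7, 13 and 9. The response was called smaller in *slpif8a* than in WT in 1 of the 43 in the first leaf (0.0286%) and 2 in the epicotyl (0.0229%).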

How the results depend on the processing

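The number of members depended on the rule, with 82 genes at a pseudocount of 0.1, 115 at R of at least 0.5, 29 at R of at least 1 and 26 when all 12 pairs were required. The difference between *slpifq* and *slpif8a* was called in 1 member in cotyledons, 0 in hypocotyls and 5 in epicotyls in a fit to the organ alone, in 3 in first leaves with limma and in 1 in epicotyls with no filter on low counts. For the list of 3 h and 24 h, *slpifq* minus WT was called in the cotyledons in 20 genes by DESeq2, 22 by limma and 3 in a fit to the organ alone, and in the first leaf in 11 by limma. *slpif8a* minus WT was called by limma in 3 genes in cotyledons, 2 in first leaves and 1 in hypocotyls, and in first leaves in 2 by DESeq2 and 0 in a fit to the organ alone. The cause of these shifts was not tested.

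With single libraries left out, *slpifq* minus *slpif8a* was called in 0 to 1 members in first leaves, 1 to 3 in hypocotyls and 0 to 2 in epicotyls. In 24FR 3 to 6 members were called lower in *slpifq* in the first leaf and 4 to 14 in the hypocotyl. In the list, *slpifq* minus WT was called in 10 to 20 genes in cotyledons, 3 to 7 in first leaves and 9 to 15 in hypocotyls, and *slpif8a* minus WT in 0 to 1 in first leaves and 0 to 1 in hypocotyls. In all, 154 of 175 alternative values and 175 of 219 values with a library left out lay within 1.5 times the reported count.

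Replicate numbers were not taken to pair the samples, since not every pair correlated. Deviations of equal numbers in 24FR and 24WL correlated above 0.1 in 22 of 36 pairs (-0.256 to 0.581), and those of *slpifq* and *slpif8a* in 16 of 24 (-0.136 to 0.523), and all 3 pairs did so in 2 of 12 comparisons of the lights and in 2 of 8 of the mutants. A replicate block gave 23 members for the difference between the mutants in the cotyledons, 22 genes of the list for *slpifq* minus WT in the cotyledons and 12 members lower in *slpifq* in 24FR in the first leaf, and moved no other of the 24 counts by over 1.5 times. Of 146 calls of named genes, 110 were kept under every alternative and library left out, and of 1976 values 99 were no longer called and 0 turned round. At the depth of these libraries, responses of genes near the floor in 24WL, several *SAUR* genes among them, are bounds and not sizes.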
